A study of Rattus norvegicus with 10 samples.

Results

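Breakdown of the branched-chain amino acids leucine, isoleucine and valine was followed at the level of messenger RNA in 10 rat liver libraries. The set was defined by gene symbol as 10 genes (Bcat2, Bckdha, Bckdhb, Dbt, Bckdk, Ivd, Mccc1, Mccc2, Hibch and Acadsb), of which 9 have a row under their symbol among the 12555 genes of the deposited table. All 9 passed the filter on low counts. No row carries the symbol Bckdk; a row whose full name is that of this gene is described separately.

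The restricted group was 5 libraries from young whose mothers were fed 30% fewer calories throughout gestation (restricted 1 to 5). It was set against 5 libraries from young of normally fed mothers (normal 1 to 5). The deposited library names are SGA for the restricted group and AGA for the normal group. All animals were wild type. The labels call the material liver and hepatocytes, with a cell line as the source, whereas the series' text describes liver tissue. Age, sex, litter and feeding state are not stated in the labels. Nor do they say that each library came from a separate animal, so the spread that the p-values measure may be technical.

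As background, the first step of the pathway is a reversible transamination to branched-chain keto acids, carried out in mitochondria by BCAT2. The branched-chain keto acid dehydrogenase complex then makes the irreversible step to acyl-CoA. The complex is built from an E1 enzyme of alpha and beta subunits (Bckdha and Bckdhb), an E2 core (Dbt) and the shared E3 enzyme (Dld). It is switched off when the kinase BCKDK phosphorylates the E1 alpha subunit and switched on when the phosphatase PPM1K removes the phosphate. The transaminase is low in liver and the dehydrogenase complex is active there, so rat liver mainly handles keto acids that other tissues release. Beyond the complex the 3 amino acids part ways: leucine ends in acetyl-CoA and ketone bodies, valine in propionyl-CoA, and isoleucine in both acetyl-CoA and propionyl-CoA.

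Total counts ran from 15052166 to 22104957 in the restricted libraries and from 14936156 to 16105083 in the normal libraries. The 8 hepatocyte markers all had rows and summed to 156000 to 232000 CPM (counts scaled to a common library size, with TMM factors) in the restricted libraries and 172000 to 205000 CPM in the normal libraries. As single genes, 1 of the 8 passed the test between the groups, against 4.09% of all genes (adjusted p under 0.05 in edgeR). The sum therefore does not show that each marker was unchanged. The markers of skeletal muscle and of pancreas had no rows. Summed macrophage markers (7 of 7 with rows) were 594, 1120, 596, 744 and 1440 CPM in restricted 1 to 5 and 527 to 716 CPM in the normal libraries, and T and NK cell markers (3 of 5 with rows) were 2.09 to 16.1 CPM and 1.21 to 4.03 CPM. Of the Y-linked markers, 1 of 4 had a row. This gene, Kdm5d, was at 0 counts in each of restricted 1 to 4, with 309 counts in restricted 5 and 280 to 392 in the normal libraries. Maternal diet and whatever sets the Kdm5d counts therefore cannot be told apart in restricted 1 to 4. In whole liver, fewer cells of a type and less RNA per cell cannot be told apart either.

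The E1 beta subunit Bckdhb (ENSRNOG00000009928) was lower in the restricted libraries, and it was the 1 gene of the 9 that passed the test. It had 99.3, 88.2, 81.6, 90.3 and 61.4 CPM in restricted 1 to 5, against 122, 124, 120, 120 and 134 CPM in normal 1 to 5. Every restricted library lay below every normal library, with restricted 5 the lowest. The means were 84.2 ± 14.2 CPM in the restricted group and 124 ± 5.66 CPM in the normal group (SD, n = 5 each). The log2 fold change was −0.56 ± 0.12 (SE; 95% interval −0.81 to −0.31), a level 0.679 times that of the normal group (adjusted p 0.0206, edgeR quasi-likelihood test with Benjamini-Hochberg adjustment over 12367 genes). In the authors' deposited table Bckdhb has a log2 fold change of −0.556 and an adjusted p of 0.000487.

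Restricted 5, the 1 restricted library with Kdm5d counts, had a log2 fold change of −1.01 against the 5 normal libraries (adjusted p 0.00354 in edgeR, assuming that the lone library varies like the others). Its 309 Kdm5d counts lay within the 280 to 392 of the normal libraries, so in this contrast the Kdm5d counts were alike. The contrast rests on 1 library, so what is particular to that library cannot be told from diet. Without restricted 5, which had the highest macrophage and T and NK cell marker sums and the lowest Bckdhb, the log2 fold change was −0.46 (adjusted p 0.0143 in edgeR); any further part of those cell types in the result was not tested. Without normal 5 it was −0.53 and missed the threshold (adjusted p 0.0581 in edgeR).

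**Figure D1:**
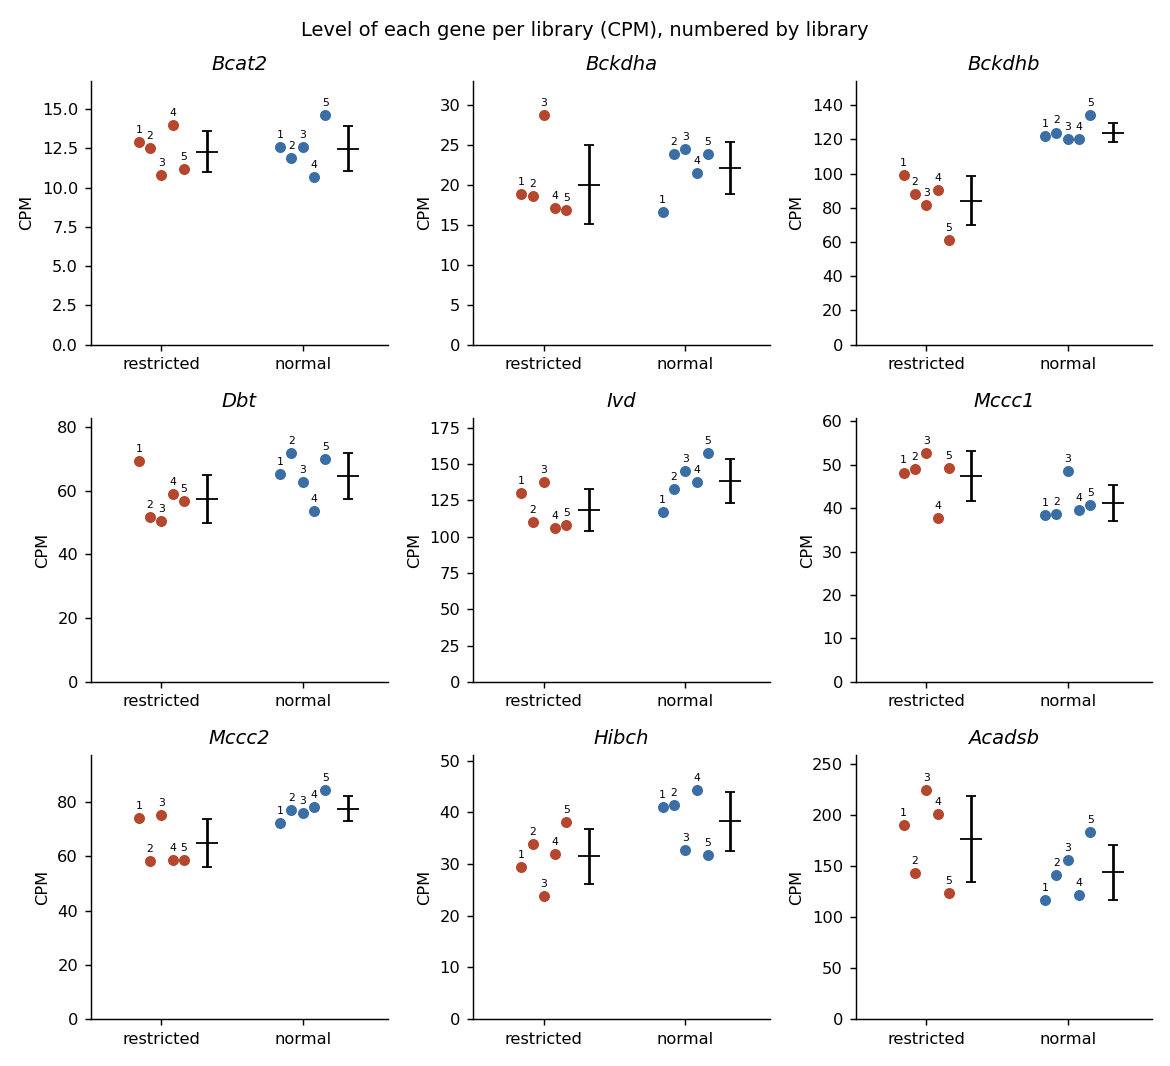
CPM of the 9 genes in each library, with restricted libraries on the left and normal libraries on the right of each panel; points are libraries numbered as in the labels, and bars are mean ± SD (n = 5). Bckdhb is the panel in which the 2 groups do not overlap, with restricted libraries at 61.4 to 99.3 CPM and normal libraries at 120 to 134 CPM.

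Of the 9 genes, 0 passed as higher and 1 as lower, 11.1% of the set. Over all 12367 genes tested, 4.09% passed in either direction, 2.22% as lower and 1.87% as higher. Groups that did not overlap, with the restricted group lower, were found for 1 of the 9 genes and for 3.44% of all genes. With the restricted group higher there were 0 of the 9, against 2.91% of all genes. At an unadjusted p of 0.05, 2 of the 9 passed (Bckdhb and Mccc2), both lower, against 20.1% of all genes (9.93% lower, 10.2% higher). The log2 fold change was negative for 7 of the 9 genes, against 47.7% of all genes, and its median was −0.17, against 0.01 over all genes. By p under 0.05 in the authors' deposited table, 2 of the 9 genes passed (21.5% of all its genes), and 1 passed by its adjusted p (8.48%). None of the 9 also reached the authors' fold limit there, an absolute log2 fold change above 1. The share of all genes that did was not counted, so this result has no background to be read against.

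Over all genes, the share past adjusted p 0.05 was 4.06% with RLE scaling, 4.17% with upper-quartile scaling, 3.9% with limma-voom, 4.09% without a filter and 4.2% with the stricter filter. DESeq2 called 8.82% of genes (4.52% lower, 4.31% higher). With the replicate number as a block the share was 2.14% (1.12% lower, 1.03% higher), with Kdm5d as a covariate 0.978% (0.154% lower, 0.825% higher), and for restricted 5 alone 6.49% (1.37% lower, 5.11% higher). It was 3.76, 1.87, 3.75, 2.43 and 3.8% without restricted 1 to 5, and 3.35, 2.89, 2.14, 1.83 and 1.72% without normal 1 to 5. Bckdhb was called lower in each of these fits except with the block and without normal 5. With Kdm5d as a covariate the diet effect rests almost wholly on restricted 5, so that fit is not a separate check. The log2 fold change of Bckdhb was −1.03 with the covariate and −1.01 for restricted 5 alone.

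The other subunits of the complex did not pass. Bckdha (ENSRNOG00000020607), the E1 alpha subunit that carries the regulatory phosphate, had 18.9, 18.6, 28.7, 17.1 and 16.8 CPM in restricted 1 to 5, against 16.6, 23.9, 24.5, 21.5 and 23.9 CPM in normal 1 to 5. Restricted 3 was the highest of the 10 libraries and normal 1 the lowest, and the groups overlapped. The log2 fold change was −0.14 (95% interval −0.49 to 0.20; adjusted p 0.655 in edgeR), and −0.31 without restricted 3 (adjusted p 0.181 in edgeR). Dbt (ENSRNOG00000015029), the E2 core, had 69.4, 51.9, 50.5, 58.9 and 56.7 CPM in restricted 1 to 5, against 65.3, 72.0, 62.7, 53.7 and 70.0 CPM in normal 1 to 5. Its groups overlapped too, with a log2 fold change of −0.17 (95% interval −0.41 to 0.06; adjusted p 0.397 in edgeR). Dld, the E3 enzyme shared with pyruvate dehydrogenase, had 96.8 to 136 CPM in the restricted libraries and 134 to 149 CPM in the normal libraries, with a log2 fold change of −0.27 ± 0.10 (SE; adjusted p 0.178 in edgeR).

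Whether the subunits changed unequally was tested with the log2 ratio of their CPM within each library, in which depth and scaling cancel. The ratio of Bckdhb to Bckdha was 2.39, 2.24, 1.5, 2.40 and 1.86 in restricted 1 to 5, against 2.87, 2.37, 2.29, 2.48 and 2.48 in normal 1 to 5. Restricted 3 and 5 lay lowest, while restricted 1 and 4 overlapped the normal libraries. The difference of −0.42 did not pass (exact p 0.0635, 0.0952 adjusted over 3 ratios, two-sided permutation test of 5 against 5 libraries, smallest possible p 0.00794). Without restricted 3 the difference was −0.27, and over all left-out libraries it ran from −0.50 to −0.27. The ratio of Dbt to Bckdha averaged 1.54 ± 0.43 in the restricted group and 1.55 ± 0.26 in the normal group (SD, n = 5 each; exact p 0.952). A fall of Bckdhb relative to its E1 partner was therefore not shown at this number of libraries.

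The promoter of Bckdhb is shown because this is the gene of the set that fell. The window of 300 bases, from 250 bases before the gene's start to 50 after it, is taken from RefSeq on the build GRCr8, which is not the build rn7 of the counts (chr8:93725027-93725326, plus strand). Capitals mark the letters CCAAT, or ATTGG where the match is on the other strand, the core of the box bound by the factor NF-Y.
Bckdhb: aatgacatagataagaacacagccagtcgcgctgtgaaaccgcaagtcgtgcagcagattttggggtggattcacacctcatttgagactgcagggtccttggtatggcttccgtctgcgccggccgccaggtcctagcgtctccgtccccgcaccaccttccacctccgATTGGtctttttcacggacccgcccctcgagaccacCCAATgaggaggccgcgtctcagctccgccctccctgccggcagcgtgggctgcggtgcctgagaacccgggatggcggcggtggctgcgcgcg
The window held 2 matches to CCAAT and 2 to GGGCGG (the GC box), counting both strands, and 0 to CACGTG (the E-box). Of all 33469 promoter windows in the table, 37.5% held CCAAT, 33.1% GGGCGG and 6.42% CACGTG. Of the 8 listed genes with a window, 4 held CCAAT (Bckdhb, Dbt, Ivd and Mccc1) and 0 held CACGTG. The matches describe the sequence and say nothing of which factors bind it.

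The kinase and the phosphatase of the complex were read from less certain or more variable values. The row ENSRNOG00000019485 carries the symbol Kat8, a histone acetyltransferase, but the full name of the branched-chain keto acid dehydrogenase kinase, and the genes Bckdk and Kat8 neighbour each other in RefSeq on GRCr8. Which gene its counts belong to cannot be told from the table. It had 32.1, 32.2, 30.1, 31.7 and 30.5 CPM in restricted 1 to 5, against 38.1, 34.8, 46.6, 35.8 and 31.9 CPM in normal 1 to 5. The restricted libraries lay close together and all below the normal mean, and the log2 fold change of −0.26 ± 0.10 (SE) did not pass (adjusted p 0.171 in edgeR).

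Ppm1k (ENSRNOG00000006893), the phosphatase that activates the complex, had 53.3, 87.0, 58.9, 123 and 163 CPM in restricted 1 to 5, against 48.1, 70.5, 41.3, 42.3 and 72.3 CPM in normal 1 to 5. Restricted 2, 4 and 5 lay above all normal libraries, and restricted 1 and 3 lay within their range. The log2 fold change of 0.82 (95% interval 0.10 to 1.55) did not pass (adjusted p 0.196 in edgeR). It was 1.57 for restricted 5 alone against the normal libraries (adjusted p 0.0297 in edgeR, with a lone library assumed to vary like the others) and 0.55 without restricted 5 (adjusted p 0.33 in edgeR). No ratio of the kinase to the phosphatase was tested, since the identity of the kinase row is not settled.

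In the leucine branch the 2 subunits of methylcrotonyl-CoA carboxylase had fitted changes of opposite sign. Mccc1 (ENSRNOG00000013293), the biotin-carrying alpha subunit, had 48.2, 49.0, 52.8, 37.7 and 49.3 CPM in restricted 1 to 5, against 38.5, 38.6, 48.5, 39.6 and 40.7 CPM in normal 1 to 5. Mccc2 (ENSRNOG00000017752), the beta subunit, had 74.0, 58.4, 75.1, 58.5 and 58.8 CPM in restricted 1 to 5, against 72.4, 77.1, 75.9, 78.2 and 84.6 CPM in normal 1 to 5. For Mccc1, 4 of 5 restricted libraries were above the normal mean, and for Mccc2 all 5 were below it, with overlap in both. Neither passed on its own, with log2 fold changes of 0.20 (95% interval −0.02 to 0.43; adjusted p 0.291) and −0.26 (95% interval −0.47 to −0.04; adjusted p 0.167) in edgeR.

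The ratio of Mccc1 to Mccc2 within a library was higher in every restricted library than in any normal library. On the log2 scale it was −0.62, −0.25, −0.51, −0.63 and −0.25 in restricted 1 to 5, against −0.91, −1.0, −0.65, −0.98 and −1.05 in normal 1 to 5. The gap between the groups was narrow, since restricted 4 and normal 3 lay next to each other. The means of −0.45 ± 0.19 and −0.92 ± 0.16 (SD, n = 5 each) differed by 0.46, a ratio 1.38 times that of the normal group (exact p 0.00794, the smallest this design allows; 0.0238 adjusted over 3 ratios). Without any single library the difference was 0.41 to 0.53, and restricted 5 alone differed from the normal mean by 0.66. How often other gene pairs separate the groups this way was not counted, so the separation has no background to be read against. Of all genes tested singly, 6.35% had groups that did not overlap, in either direction. Mccc1 and Mccc2 belong to a set chosen with earlier results of these data known, which the exact p does not allow for.

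**Figure D2:**
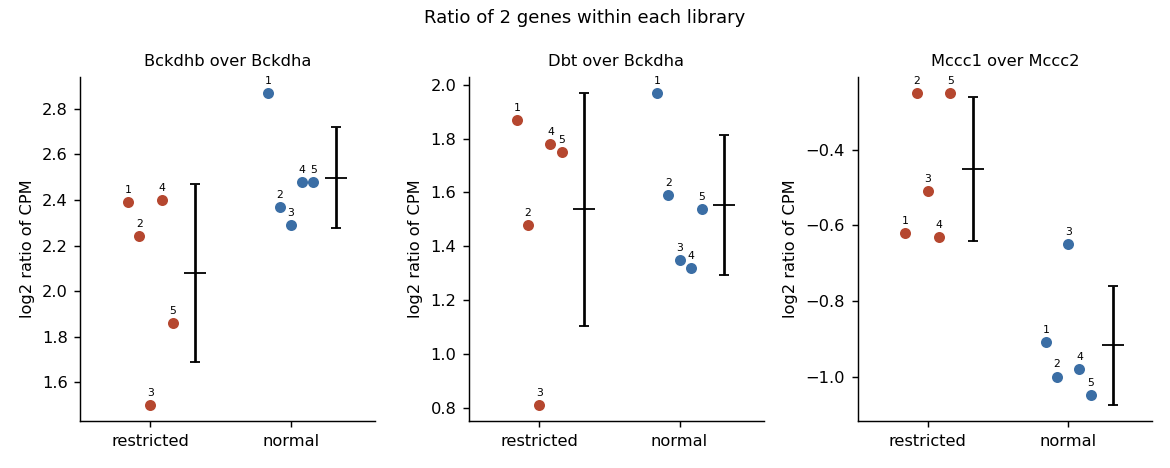
Log2 ratio of CPM of 2 genes within each library, restricted libraries left and normal libraries right; points are numbered libraries and bars are mean ± SD (n = 5). The groups are apart for Mccc1 over Mccc2 (means −0.45 and −0.92) and overlap for Bckdhb over Bckdha and for Dbt over Bckdha.

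The remaining listed genes did not pass. Ivd (ENSRNOG00000009421), the isovaleryl-CoA dehydrogenase that precedes the carboxylase in leucine breakdown, had 106 to 138 CPM in the restricted libraries and 117 to 158 CPM in the normal libraries. All 5 restricted libraries lay below its normal mean, with a log2 fold change of −0.22 (95% interval −0.46 to 0.01; adjusted p 0.266 in edgeR). Hibch (ENSRNOG00000028557), which frees 3-hydroxyisobutyrate from CoA in valine breakdown, had 23.8 to 38.2 CPM in the restricted libraries and 31.8 to 44.4 CPM in the normal libraries. Its log2 fold change was −0.28 (95% interval −0.57 to 0.01; adjusted p 0.262 in edgeR), but restricted 5 alone differed from the normal libraries by −0.00.

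Acadsb (ENSRNOG00000020624), the short/branched-chain acyl-CoA dehydrogenase of isoleucine breakdown, had the highest fitted change among the 9. It had 190, 143, 225, 201 and 124 CPM in restricted 1 to 5, against 117, 141, 156, 122 and 183 CPM in normal 1 to 5. Restricted 1, 3 and 4 were above all normal libraries, and restricted 2 and 5 lay within their range. The log2 fold change of 0.30 (95% interval −0.08 to 0.67) did not pass (adjusted p 0.358 in edgeR), and for restricted 5 alone it was −0.21. Bcat2 (ENSRNOG00000020956), the mitochondrial transaminase at the head of the pathway, was the most alike between the groups, at 12.3 ± 1.27 CPM in the restricted group and 12.5 ± 1.43 CPM in the normal group (SD, n = 5 each). The 95% interval of its log2 fold change, −0.27 to 0.23, bounds the difference. Bcat1, the cytosolic transaminase, had 2 to 29 counts in the restricted libraries and 3 to 11 in the normal libraries and was removed by the filter on low counts.

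Levels can be compared between genes per length, with the authors' FPKM (fragment counts scaled by gene length and library depth). By FPKM, Bckdhb was the highest of the 9 in both groups, at 56.7 ± 9.63 FPKM in the restricted group and 82.3 ± 2.69 FPKM in the normal group (SD, n = 5 each). Ivd followed with 17.6 ± 2.18 and 20.2 ± 1.86 FPKM, and Acadsb with 17.7 ± 3.32 and 14.3 ± 2.37 FPKM, in the restricted and normal groups. Ivd and Acadsb overlapped in both groups, so their order is not set. Dbt came next, at 9.28 ± 1.31 FPKM in the restricted group and 10.3 ± 0.999 FPKM in the normal group.

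The lower part of the order held the carboxylase subunits, Bckdha, Hibch and Bcat2. Mccc1 and Mccc2 had 6.89 ± 1.11 and 6.35 ± 0.83 FPKM in the restricted group, where they overlapped, and 5.87 ± 0.577 and 7.47 ± 0.322 FPKM in the normal group, where they did not. Bckdha had 5.04 ± 1.14 FPKM in the restricted group and 5.48 ± 0.724 FPKM in the normal group, overlapping its neighbours in both. Hibch (3.89 ± 0.841 and 4.64 ± 0.76 FPKM) and Bcat2 (3.81 ± 0.388 and 3.81 ± 0.385 FPKM) were lowest and overlapped each other.

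Within each library the FPKM of Bckdhb was 7.60 to 14.1 times that of Bckdha in the restricted group and 13.1 to 19.7 times in the normal group, although both encode subunits of the same E1 enzyme. These levels depend on the gene lengths behind the FPKM. Counts and FPKM together put them at about 1493 bases for Bckdhb, 3989 for Bckdha, 6788 for Ivd, 9946 for Acadsb and 10310 for Mccc2. By mean CPM, which takes no account of length, Acadsb (177 restricted, 144 normal) and Ivd (118 and 138) lay above Bckdhb (84.2 and 124). The top rank of Bckdhb by FPKM therefore rests on these lengths. A length longer than the transcript made in liver would lower a gene's FPKM, and this was not tested.

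**Figure D3:**
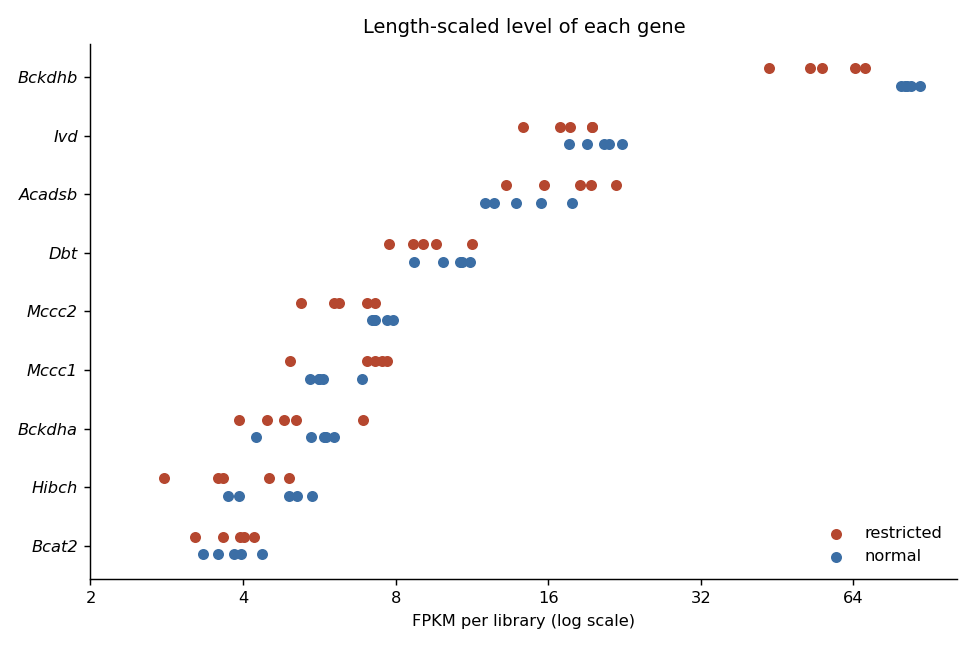
FPKM of each gene per library on a log axis, with restricted libraries above normal libraries in each row and genes ordered by their normal mean. Bckdhb stands apart at 43.6 to 67.6 FPKM in restricted libraries and 79.4 to 86.5 FPKM in normal libraries, and Bcat2 lies at the bottom at 3.21 to 4.35 FPKM.

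The 3 tested genes whose profile over the 10 libraries was nearest to that of Bckdhb, by the root mean square difference of log2 CPM centred on each gene's mean, were Fxyd6 (0.112), Tbl2 (0.116) and Pdk2 (0.118). Fxyd6 is named as an FXYD domain-containing ion transport regulator and Tbl2 as transducin (beta)-like 2. Pdk2 encodes a kinase of pyruvate dehydrogenase, the sister complex that shares Dld. A link between the complexes was not tested. Among the other listed genes the nearest was Mccc2, at 0.229 and rank 298 of the tested genes, and Bckdha, the E1 partner, came at 0.351 and rank 3471.

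The rest of the pathway was covered by 30 further genes, of which 29 were tested. Of these 29, 0 passed as higher and 1 passed as lower, near the 4.09% of all genes that passed, and their median log2 fold change was −0.09, against 0.01 over all genes. The gene that fell was Mmab (ENSRNOG00000049426), an adenosyltransferase that makes the cobalamin cofactor of methylmalonyl-CoA mutase, the enzyme through which propionyl-CoA from valine and isoleucine enters the citric acid cycle. It had 9.36, 7.77, 10.4, 6.76 and 6.48 CPM in restricted 1 to 5, against 13.9, 11.5, 13.6, 15.4 and 13.1 CPM in normal 1 to 5. The groups did not overlap, and the log2 fold change was −0.73 ± 0.15 (SE; adjusted p 0.0195 in edgeR). The call was lost without restricted 2 (−0.71, adjusted p 0.0529), without normal 4 (−0.66, adjusted p 0.0584) and with Kdm5d as a covariate (−1.07, adjusted p 0.0779), all in edgeR. For restricted 5 alone against the normal libraries the log2 fold change was −1.06 (adjusted p 0.0206 in edgeR).

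The promoter window of Mmab is shown because the gene shares it with Mvk, the mevalonate kinase of cholesterol synthesis, which lies on the opposite strand (RefSeq, GRCr8, chr12:47819507-47819806, plus strand, capitals as above). The 2 windows share 247 bases, and the gene starts lie 254 bases apart.
Mmab: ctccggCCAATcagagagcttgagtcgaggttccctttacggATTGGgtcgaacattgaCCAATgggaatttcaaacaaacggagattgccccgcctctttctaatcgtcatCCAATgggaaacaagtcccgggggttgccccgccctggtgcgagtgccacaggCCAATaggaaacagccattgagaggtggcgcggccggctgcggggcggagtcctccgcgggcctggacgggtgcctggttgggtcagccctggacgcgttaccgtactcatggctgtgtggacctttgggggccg
This window held 5 matches to CCAAT and 2 to GGGCGG on both strands together, and 0 to CACGTG. Mvk, chosen after its values were seen, had 19.6 to 35.9 CPM in the restricted libraries and 34.6 to 56.8 CPM in the normal libraries. Its log2 fold change of −0.68 ± 0.18 (SE) did not pass in edgeR (adjusted p 0.0588) and passed in DESeq2 (adjusted p 0.0106). With each library left out, its adjusted p was 0.0249 to 0.138 in edgeR, and only the fit without restricted 3 passed, 1 of 10. With the replicate block it did not pass (adjusted p 0.163 in edgeR).

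The other propionyl-CoA genes did not pass. The carboxylase subunits Pcca and Pccb, the epimerase Mcee and the mutase Mmut had log2 fold changes of −0.14, 0.01, 0.00 and −0.09. Mmaa, a chaperone that loads the cofactor onto the mutase, had 8.66 to 10.7 CPM in the restricted libraries and 9.43 to 14.3 CPM in the normal libraries (log2 fold change −0.35; adjusted p 0.149 in edgeR). In valine breakdown Acad8, Echs1, Hibadh and Aldh6a1 had log2 fold changes of −0.11 to −0.15, and in isoleucine breakdown Hsd17b10 and Acat1 had −0.15 and −0.00. The lowest adjusted p of these 6 genes was 0.359.

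Auh, the hydratase that follows the carboxylase in leucine breakdown, had 43.1 ± 3.09 CPM in the restricted group and 44.3 ± 2.75 CPM in the normal group (SD, n = 5 each; adjusted p 0.831 in edgeR).

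None of the 6 transport genes passed. Slc3a2, the heavy chain of the large neutral amino acid transporters, had 116 to 202 CPM in the restricted libraries and 80.9 to 150 CPM in the normal libraries (log2 fold change 0.50, adjusted p 0.178 in edgeR). With each library left out, the adjusted p of Slc3a2 was 0.0413 to 0.333 in edgeR, past the threshold in 1 of 10 fits (without normal 1). Slc7a5, a light chain of Slc3a2, had a log2 fold change of 0.23 with a 95% interval of −0.34 to 0.80, and −0.06 without restricted 2. Slc7a8, also among the 6, had a log2 fold change of 0.34 (95% interval −0.13 to 0.80; adjusted p 0.403 in edgeR). Slc43a1, a facilitated carrier of branched-chain amino acids, averaged 29.6 ± 7.34 CPM in the restricted group and 38.0 ± 6.04 CPM in the normal group (SD, n = 5 each). Its log2 fold change was −0.36 (adjusted p 0.239 in edgeR). With each library left out, the adjusted p of Slc43a1 was 0.0451 to 0.421 in edgeR, past the threshold in 1 of 10 fits (without restricted 1). Slc25a44, the mitochondrial carrier of branched-chain amino acids known from mouse brown fat, had 24.1 ± 3.42 CPM in the restricted group and 28.0 ± 4.20 CPM in the normal group (SD, n = 5 each; adjusted p 0.337 in edgeR).

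None of the 8 tested genes of cofactors and electron transfer passed. The log2 fold change was negative for 6 of them, against 47.7% of all genes, and its median was −0.05, against 0.01 over all genes. Hlcs, the ligase that attaches biotin to the carboxylases, averaged 29.0 ± 4.32 CPM in the restricted group and 22.0 ± 4.12 CPM in the normal group (SD, n = 5 each; log2 fold change 0.40; adjusted p 0.138 in edgeR). Etfdh, which passes electrons from Ivd, Acadsb and other acyl-CoA dehydrogenases to the respiratory chain, had a log2 fold change of 0.27 ± 0.13 (SE; adjusted p 0.242 in edgeR). Etfa, the carrier subunit that feeds Etfdh, averaged 203 ± 10.4 CPM in the restricted group and 207 ± 8.12 CPM in the normal group (SD, n = 5 each).

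**Figure D4:**
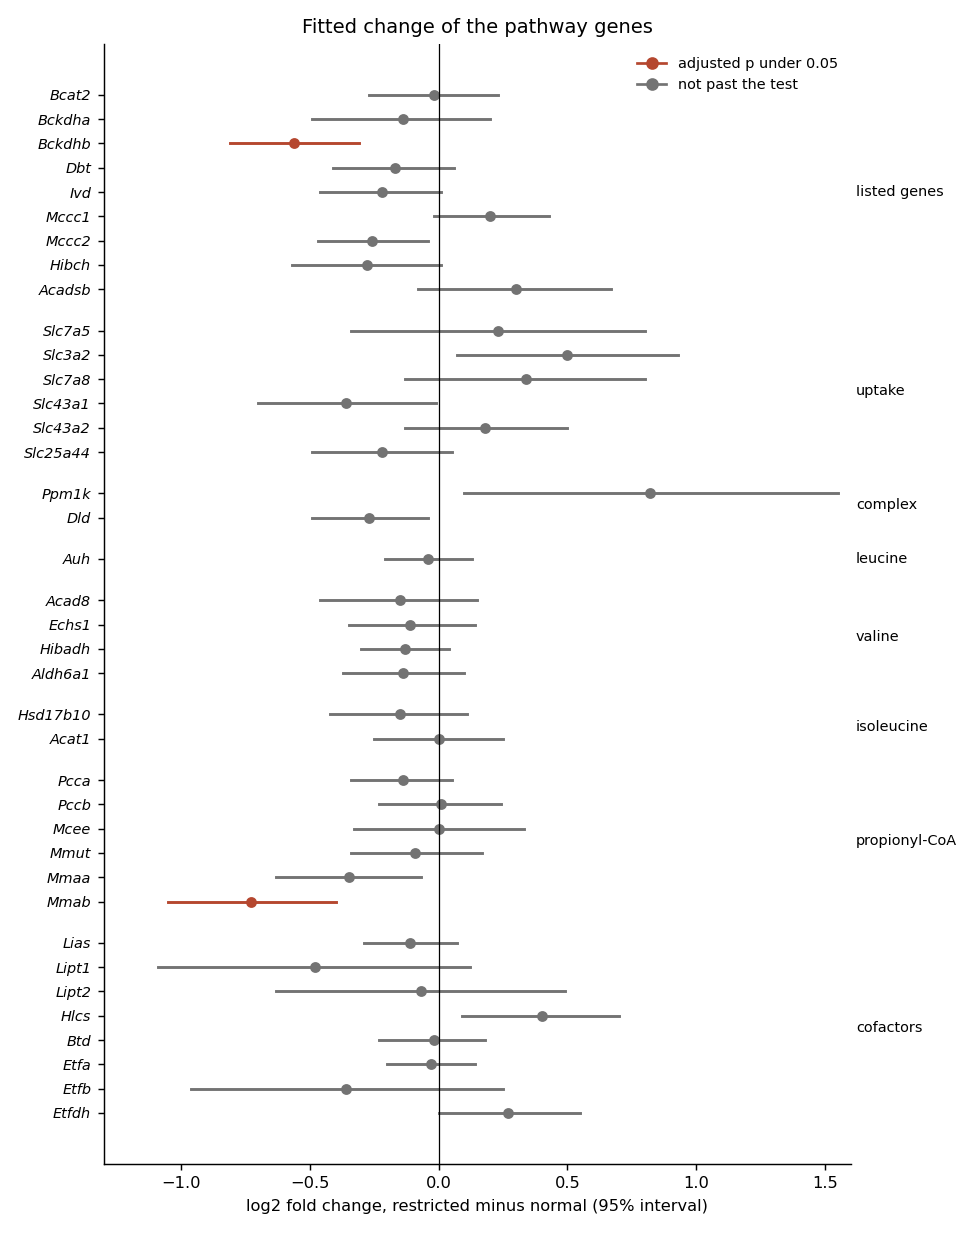
Fitted log2 fold change, restricted minus normal, with 95% interval (edgeR, 5 libraries per group) for the 9 listed genes and 29 further pathway genes grouped by step; red marks an adjusted p under 0.05. Bckdhb (−0.56) and Mmab (−0.73) are the genes past the test, and most other intervals include 0.

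Of the genes that regulate the pathway or share its kinase, the fatty acid synthesis enzyme Acly showed the widest separation. BCKDK and PPM1K are known in rat liver to act on ACLY as well as on the E1 alpha subunit. Acly had 86.0 to 193 CPM in the restricted libraries and 346 to 492 CPM in the normal libraries, a log2 fold change of −1.70 ± 0.23 (SE; adjusted p 0.00527 in edgeR). The row named MLX interacting protein-like carries the symbol AABR07035839.1 rather than Mlxipl, so its identity rests on its full name alone. That name is the one of ChREBP, a carbohydrate-sensing factor known in rat liver to raise the kinase and lower the phosphatase. The row had 56.4 to 108 CPM in the restricted libraries and 89.4 to 173 CPM in the normal libraries. Its log2 fold change was −0.74 ± 0.19 (SE; adjusted p 0.0473 in edgeR), and its adjusted p stayed past the threshold without restricted 1 or normal 1 and was 0.0745 to 0.119 without any of the other 8 libraries. The call was also lost with the replicate block (−0.74, adjusted p 0.176), for restricted 5 alone (−0.80, adjusted p 0.18) and with the Kdm5d covariate (−0.79, adjusted p 0.289), all in edgeR. With any 1 library left out the log2 fold change was −0.87 to −0.63. Klf15, a factor known in mouse to raise genes of amino acid breakdown, had 46.3 to 80.8 CPM in the restricted libraries and 30.6 to 66.6 CPM in the normal libraries. Its log2 fold change of 0.52 did not pass (adjusted p 0.213 in edgeR). With each library left out, the adjusted p of Klf15 was 0.0412 to 0.354 in edgeR, past the threshold in 1 of 10 fits (without normal 2).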

How the data were processed

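Raw counts per gene, as deposited by the authors, come from HTSeq on the build rn7, after bcl2fastq and fastp (submitters' processing notes), with HISAT2 and a Q30 filter named in the series' text. No version, annotation or strand setting is stated there. The FPKM values are the authors' length-scaled values, per the file headers. The deposited ratio (fold change), its log2 and the p-values are the authors' own, restricted over normal, per the file headers; their tool is not stated.

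The counts went into edgeR 4.0.16 (R 4.3.3) (filterByExpr with minimum count 10, which kept 12367 genes; TMM; robust quasi-likelihood test, two-sided, all 10 libraries). Standard errors and 95% intervals come from the F statistic of that fit. Ratios within a library used log2 CPM with prior count 2 and exact permutation tests in scipy 1.17.1; a planned ratio with Bckdk was not run. Named are all listed genes, genes of the fixed pathway lists, and the 3 nearest profiles of a listed gene past the test. The members and lists were chosen with earlier results of these data known. Fold changes and counts of calls were recomputed with DESeq2 1.42.0, limma-voom (limma 3.58.1), upper-quartile or RLE scaling, no filter, a filter of 1 CPM in 5 libraries, Kdm5d as a covariate, a block for the replicate number, restricted 5 alone against the normal libraries, and each library left out, the last 2 over the genes of the full fit. Ratios were recomputed with prior count 0.5, the block, restricted 5 alone and each library left out. The fit was tested on simulated counts. Library pairs within a group differed by a chi-square per degree of freedom of at least 21.2, so no library was a repeat sequencing of another. Whether libraries share an animal cannot be told from this value. 1 further pathway gene was taken out of the lists and is not reported here.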

Additional observations from a re-analysis of the deposited data

Results flagged for a closer look

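In 90 groups of 5 libraries, 1 library stood far from the other 4 in 6 cases (a gap of more than 0.71 of the group's range); chance gives about 1 in 20. On the log2 CPM scale Bckdha stood at 4.85 in restricted 3, with the 4 other restricted libraries at 4.08 to 4.25. Mccc1 stood at 5.24 in restricted 4 (the others at 5.59 to 5.73) and at 5.60 in normal 3 (the others at 5.27 to 5.35). Those 2 libraries are the ones that lie next to each other in the ratio of Mccc1 to Mccc2. Slc25a44 was 5.15 in normal 1, against 4.68 to 4.77. Auh was 5.31 in normal 1, against 5.48 to 5.54. Lipt2, a lipoyl transferase with few counts, stood at 1.42 in restricted 4 (the others at 0.69 to 0.80).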

How the results depend on the processing

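The count of listed genes past the test was 1 (Bckdhb) in every fit except 2: it was 0 with the replicate number as a block (log2 fold change −0.57, adjusted p 0.0574 in edgeR) and 0 without normal 5, so 0 to 1 when each library was left out. The fit with Kdm5d as a covariate is not a separate check from that of restricted 5 alone. Same-numbered libraries had correlations of −0.185 to 0.121 between the groups, and 4 of 10 libraries correlated best with their own number. These values cannot settle whether the numbers mark a pairing. Over all genes 265 passed with the block and 506 without it. The count of further pathway genes was 1 in the full fit, 0 with Kdm5d as a covariate, 3 for restricted 5 alone (Mmab, Ppm1k and Slc43a2), and 0 to 2 when each library was left out. DESeq2 called 1049 genes in all, Kdm5d as a covariate left 121, restricted 5 alone gave 802, and leaving out a library gave 213 to 470. With the block the ratio of Mccc1 to Mccc2 differed by 0.46 and could not pass, since its exact p of 0.0625 is the smallest that 5 pairs allow. For restricted 5 alone the ratio of Mccc1 to Mccc2 was 0.66 and that of Dbt to Bckdha was 0.20, a change of sign from −0.02; when each library was left out the ratio of Dbt to Bckdha ran from −0.10 to 0.17. Among genes that never passed, the sign turned with Kdm5d as a covariate for Hibch (0.01) and Acadsb (−0.24), for restricted 5 alone for Acadsb (−0.21), and for Bcat2 over the left-out libraries (−0.06 to 0.04). It also turned for Slc7a5 with Kdm5d as a covariate (−0.05), for restricted 5 alone (−0.04) and over the left-out libraries (−0.06 to 0.40). Acat1, at −0.00, was 0.00 with RLE scaling, DESeq2 and restricted 5 alone, 0.01 with limma-voom and the block, 0.02 with Kdm5d as a covariate, and −0.04 to 0.11 over the left-out libraries. Pccb, at 0.01, was −0.02 with upper-quartile scaling, −0.01 with limma-voom and the block, −0.31 with Kdm5d as a covariate, −0.30 for restricted 5 alone, and −0.04 to 0.07 over the left-out libraries. Mcee, at 0.00, was −0.02 with upper-quartile scaling, −0.03 with limma-voom, −0.00 without a filter, −0.01 with the block, −0.10 with Kdm5d as a covariate and for restricted 5 alone, and −0.09 to 0.07 over the left-out libraries. Over the left-out libraries Auh ran from −0.08 to 0.00, Lipt2 from −0.22 to 0.04 and Btd from −0.07 to 0.03. For these changes the cause was not tested. Depth limits Bcat1, which had 2 to 29 counts in the restricted libraries and 3 to 11 in the normal libraries.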
